A study of Homo sapiens with 24 samples.

Results

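The proteasome genes of the deposited count matrix were examined in 2 human breast cancer cell lines that differ in their need for methionine. Members were chosen by name alone, as every gene whose symbol begins with PSM and continues with a letter from A to G and a number. This rule found 48 of 26645 gene rows, and 44 of the 48 were among the 14741 genes with enough reads to be tested.

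RNA was sequenced from MDA-MB-468 (MB468), an established triple-negative breast cancer line that is methionine-sensitive, and from MDA-MB-468res-R8, called MB468res-R8 or R8 here, its methionine-insensitive derivative, which is 1 clone. Both lines were kept in DMEM with dialyzed serum, vitamin B12, glutamine, cysteine and 100 µM methionine (Met+), and cells collected in that medium are the 0 h group. For the other groups the medium was switched to one with no methionine and 370 µM DL-homocysteine (Met-Hcy+), and cells were collected after 0.5, 2 or 12 h. Each of the 8 groups held 3 libraries, so that 24 libraries were compared. The labels do not say whether the 3 libraries came from separate cultures, and the p-values therefore measure the spread between libraries, which may be technical. No group kept methionine medium for 0.5, 2 or 12 h, so time after a change of medium and the loss of methionine cannot be told apart.

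The 26S proteasome is the protease that destroys proteins tagged with ubiquitin. Its 20S core is a barrel of outer alpha rings and inner beta rings, and the beta rings hold the proteolytic sites. The 19S cap recognizes ubiquitin, unfolds the substrate with a ring of ATPases and feeds it into the core, while dedicated chaperones build core and cap and then leave.

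Total counts per library ranged from 11745553 to 36496655, with a median of 20503827. The ERCC spike-in RNAs took 0.201 to 0.303% of the counts. Summed levels of 11 epithelial markers were 10500 to 13800 CPM (counts per 1000000) in every library, whereas the leukocyte genes PTPRC and CD3E did not exceed 0.192 CPM. CD14 stood at 20.8 to 160 CPM and COL1A1 at 15.5 to 72.6 CPM, with the other fibroblast markers at or under 0.649 CPM, and their part in the results was not tested. The hormone receptor gene PGR did not exceed 0.0975 CPM, ESR1 reached 4.07 to 22.1 CPM and ERBB2 37.5 to 94.9 CPM.

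The simplest view of the members is the share of all gene counts that they took. The 48 members together took 0.613 to 0.638% of counts in MB468 at 0 h and 0.490 to 0.495% in MB468 at 12 h. In MB468res-R8 their share was 0.632 to 0.668% at 0 h and 0.704 to 0.719% at 12 h. The shares at 0.5 and 2 h lay between 0.599 and 0.647% in MB468 and between 0.642 and 0.672% in MB468res-R8. The 12 h libraries of MB468 were thus below every other library, and the 12 h libraries of MB468res-R8 were above every other library. This share is relative to all RNA in a library, and a lower share cannot be told apart from more RNA of other genes. With bulk RNA, fewer cells of a kind and less RNA per cell cannot be told apart either.

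**Figure D1:**
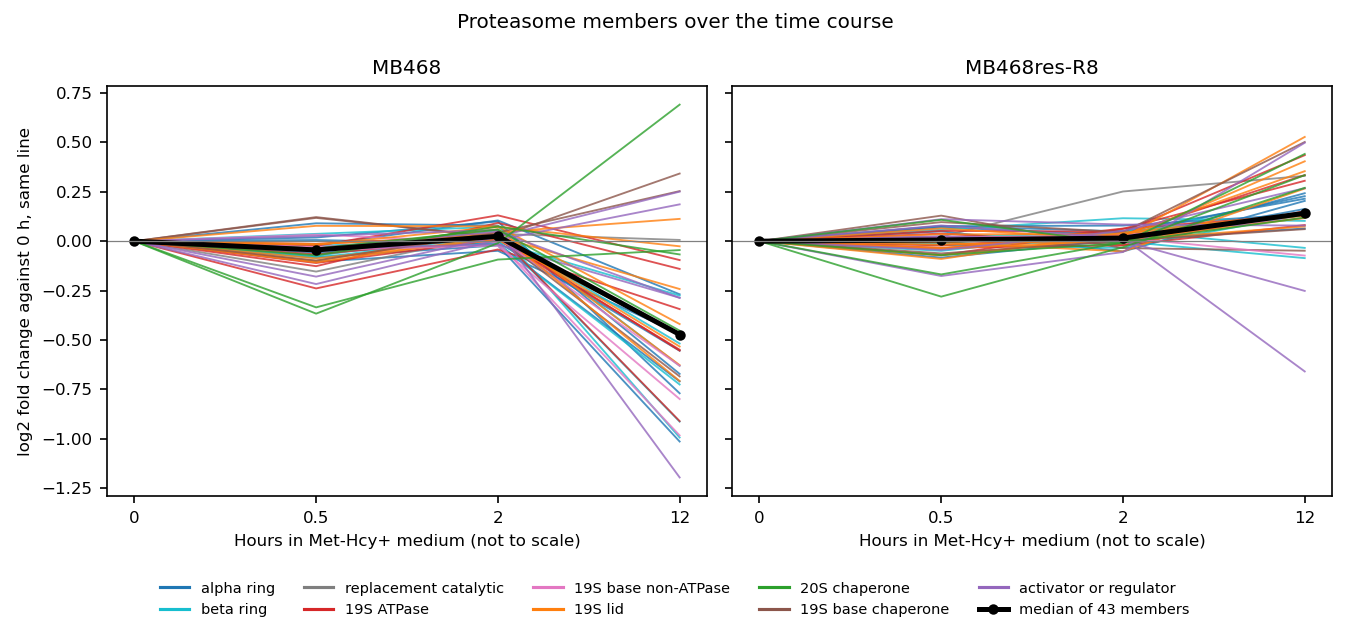
The log2 fold change against 0 h of the same line (vertical axis) is drawn for 43 tested proteasome members (all but PSMB3) by hours in Met-Hcy+ medium, 0, 0.5, 2 and 12 (horizontal axis, spacing not to scale), with MB468 on the left, MB468res-R8 on the right, lines colored by role and the median in black. The median stayed near 0 until 2 h, then reached -0.47 in MB468 and 0.14 in MB468res-R8 at 12 h.

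Levels of the members differed widely before any treatment. Normalized read counts were divided by the length of the gene's merged exons, since only levels per length can be compared between genes. In MB468 at 0 h the highest level per kilobase belonged to PSMC3, an ATPase of the cap, at 2986 ± 98.4 normalized counts per kilobase (SD, n = 3). The alpha ring gene PSMA7 followed at 2414 ± 61.1 and the catalytic gene PSMB5 at 2389 ± 36.4, and these last values did not differ beyond their spread. Among 13 alpha and beta ring genes the level per kilobase spanned 11.7-fold in MB468 at 0 h, with PSMA2 lowest at 207. In MB468res-R8 at 0 h the same span was 7.38-fold and PSMA2 stood at 355 normalized counts per kilobase. The 17 genes of the cap spanned 17.1-fold in MB468 at 0 h, from PSMD6 at 175 to PSMC3. Genes whose products sit side by side in 1 particle therefore had unequal counts per annotated length. The length of the expressed transcripts was not measured, and the merged exons of PSMA2 and PSMD6 are long, at 8378 and 9056 bases. The lengths are annotated ones, and the order of the genes depended on them. With the longest transcript in place of merged exons the ring span in MB468 at 0 h was 12.8-fold and the cap span 12.5-fold. By that length PSMB5 had rank 5 among the members in MB468 at 0 h, and PSMD2 had rank 3. The chaperone gene PSMG4 was the lowest of the members that passed the filter apart from PSMB3, at 32.9 ± 0.668 normalized counts per kilobase.

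The upstream sequences of the members were searched for the core of the antioxidant response element, TGACNNNGC, on both strands. This element is bound by NRF2 and by NFE2L1 (NRF1), the transcription factor best known for raising proteasome genes when proteasome activity falls short. RefSeq promoter windows of build GRCh38.p14, from 250 bases before to 50 bases after the start, were found for 42 of the 48 members (51 windows, since some genes have several starts). The core was present in 15 of these windows (29.4%), against 13.3% of all 35116 windows. A second motif, the core of the interferon stimulated response element, which is 2 copies of GAAA with 2 bases between them, was present in 13.7% of the members' windows and 3.57% of all windows. The CCAAT box stood at 39.2 against 34.6%, and TTCNNNGAA, the gamma-activated sequence, at 15.7 against 7.66%. The last pattern can share bases with the interferon core. A match describes letters and shows no binding. The interferon core was found in 7 members, PSMA4, PSMB4, PSMB8, PSMB10, PSME1, PSME2 and PSMG4. It was thus also present in a gene of the alpha ring, a structural beta gene and a core chaperone gene. Stretches from 8 members are shown, 6 with the antioxidant core in genes of the alpha ring, the lid, the chaperones and an activator, among them genes that fell and genes that rose at 12 h, and 2 with the interferon core in the replacement subunit and the activator known to respond to interferon. Capitals mark the motif, sequence runs 5′ to 3′ along the gene, and positions are those of hg38:
PSMA4 (alpha ring, chr15:78540650-78540678, plus strand): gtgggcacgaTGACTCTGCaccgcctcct
PSMD3 (lid of the cap, chr17:39980760-39980788, plus strand): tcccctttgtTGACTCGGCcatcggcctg
PSMD12 (lid of the cap, chr17:67366724-67366752, minus strand): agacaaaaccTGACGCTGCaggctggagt
PSMG1 (core chaperone, chr21:39183616-39183644, minus strand): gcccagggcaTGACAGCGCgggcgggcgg
PSMD5 (cap chaperone, chr9:120843038-120843066, minus strand): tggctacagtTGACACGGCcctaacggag
PSME4 (activator, chr2:53971009-53971037, minus strand): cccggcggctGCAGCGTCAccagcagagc
PSMB10 (replacement catalytic subunit, chr16:67936852-67936881, minus strand): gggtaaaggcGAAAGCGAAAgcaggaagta
PSME2 (activator, chr14:24146619-24146648, minus strand): cctggggagtGAAAGCGAAAgcccgggcga
In PSME4 the core lies on the opposite strand of the gene and so reads as its reverse complement.

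Before the switch the lines differed modestly. In Met+ medium 24 of 44 members were higher in MB468res-R8 than in MB468 and 9 were lower (edgeR quasi-likelihood test, Benjamini-Hochberg adjusted p under 0.05), where 26.4% of all tested genes were called higher and 27.1% lower. The median log2 fold change over the members was 0.11, against -0.00061 over all tested genes. With library sizes set by spike-in counts this balance turned, with 2 members higher and 15 lower, where 7.76% of all genes were higher and 44.1% lower. On that scale the member median was -0.20 and the median of all genes -0.31. By position of the libraries, 21 members had every R8 library above every MB468 library and 9 had every one below, beside 29.6 and 30.4% of all genes. The direction of the family as a whole at 0 h therefore depended on the scaling. The 0 h libraries are shared by this comparison and by the later ones over time.

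PSMA2, an alpha ring gene on chromosome 7 (chr7:42916828-42932185, hg38, GENCODE v44), stood apart at 0 h. Its normalized counts were 1759, 1788 and 1647 in MB468 and 3255, 2609 and 3062 in MB468res-R8. All R8 libraries lay above all MB468 libraries (log2 fold change 0.78 ± 0.088 (SE), adjusted p = 2.34e-07), and this gene was also higher with spike-in scaling. PSMA2 overlaps annotated genes on both strands, and counting could have split reads between them. PSMG3, which encodes a chaperone of core assembly, was the other large difference, with 945, 1023 and 985 in MB468 and 1690, 1602 and 1453 in R8 (log2 fold change 0.69 ± 0.054 (SE), adjusted p = 2.99e-14). Again the lines did not overlap, and the gene was higher in R8 with spike-in scaling as well. PSMB6, a catalytic subunit, was the third (log2 fold change 0.30 ± 0.047 (SE), adjusted p = 6.98e-07), with an estimate of -0.0072 under spike-in scaling.

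The members lower in MB468res-R8 at 0 h were led by PSMD8, a lid subunit, with counts of 5662, 5295 and 5343 in MB468 and 4040, 4024 and 4069 in R8 (log2 fold change -0.43 ± 0.044 (SE), adjusted p = 9.33e-11). PSMA7 of the alpha ring held 4338, 4225 and 4125 in MB468 and 3270, 3081 and 3292 in R8 (log2 fold change -0.40 ± 0.039 (SE), adjusted p = 1.45e-11). PSMB1, a structural beta subunit, had 4879, 4939 and 4462 in MB468 and 3854, 3689 and 3844 in R8 (log2 fold change -0.33 ± 0.047 (SE), adjusted p = 1.5e-07). For these 3 genes every R8 library was below every MB468 library. Only 3 members differed by more than 0.5 on the log2 scale, namely PSMA2, PSMG3 and PSMB3, and PSMB3 was not called.

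At 0.5 h the calls among the members were near or below the share of all genes in both lines. In MB468, 9 of 44 members fell and 1 rose, where 16.4% of all genes fell and 17.6% rose, so that the falls were near the background and the rises below it. In MB468res-R8, 3 fell and 0 rose, against 16.3 and 17.4% of all genes, so that both were below the background. For the 0 rises, 3 members had an unadjusted p under 0.05 in edgeR and DESeq2 called 1. With spike-in scaling no member was called lower in R8 at 0.5 h by edgeR, where 5.62% of all genes were. The median change was -0.042 in MB468 and 0.0067 in R8. The 3 that fell in R8, PSMG3, PSMG4 and PSME3, also fell in MB468. The share of all genes that fell in both lines at 0.5 h was not counted, so this overlap is a description only. These 2 comparisons use separate libraries of each line.

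PSMG3 counts were 755, 761 and 781 at 0.5 h in MB468 (log2 fold change -0.37 ± 0.058 (SE), adjusted p = 1.96e-06) and 1464, 1365 and 1401 in R8 (log2 fold change -0.17 ± 0.052 (SE), adjusted p = 0.0106), against the 0 h values above. PSMG4, the partner of PSMG3 in a chaperone pair that guides alpha ring formation, went from 346, 347 and 334 to 269, 255 and 298 in MB468 (log2 fold change -0.33 ± 0.092 (SE), adjusted p = 0.00375) and from 346, 324 and 315 to 288, 246 and 278 in R8 (log2 fold change -0.28 ± 0.092 (SE), adjusted p = 0.0152). Both genes had every 0.5 h library below every 0 h library in MB468, and so did PSMG4 in R8. PSMC4, an ATPase of the cap, fell in MB468 from 2071, 2168 and 2059 to 1715, 1854 and 1777 (log2 fold change -0.24 ± 0.044 (SE), adjusted p = 2.53e-05), without overlap between times. The single rise was that of PSMD5 in MB468, from 1679, 1628 and 1675 to 1855, 1825 and 1701 (log2 fold change 0.12 ± 0.045 (SE), adjusted p = 0.0382), and it was called neither by DESeq2 nor under DESeq2 size factors. With spike-in scaling its estimate was -0.10.

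At 2 h no member was called in either line by edgeR, where 8.88% of all genes rose and 7.47% fell in MB468, and 2.52 and 1.85% in MB468res-R8. Without adjustment, 4 members had p under 0.05 in MB468 and 2 in R8, all upward, and DESeq2 called 0 in both lines. The medians were 0.026 and 0.017. With spike-in scaling 43 of 44 members were called lower in MB468 at 2 h and 0 higher, where 62.9% of all genes were lower and 1.63% higher. The member median was then -0.40 and the median of all genes -0.42.

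At 12 h most members fell in MB468. Of 44 members, 32 fell and 6 rose, where 34.7% of all tested genes fell and 36.1% rose. With spike-in scaling 34 fell and 1 rose, the 1 being PSMG3, where 40.2% of all genes fell and 17.2% rose. The median log2 fold change was -0.48, against 0.0073 over all genes. By position of the libraries, 33 members had every 12 h library below every 0 h library and 6 had every one above, beside 36.4 and 38.6% of all genes. Each of the 24 fits that left out 1 library again called 32 lower. The 6 members not called were PSMB3, PSMB10, PSMC6, PSMD8, PSMG1 and PSMG4.

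In MB468res-R8 at 12 h most members rose, by less than they fell in MB468. Here 32 members rose and 2 fell, where 30.2% of all genes rose and 31.1% fell, with a median of 0.14 against -0.019 over all genes. PSMB3 is counted among the 32, with most of its reads in a single library. Every 12 h library was above every 0 h library for 32 members and below for 3, beside 31.9 and 32.7% of all genes. Without R8 0 h replicate 2, 21 members rose. With spike-in scaling 11 rose and 1 fell, where 18.8% of all genes rose and 21.2% fell, so that the share of rises was near the background. On that scale the median of all genes was 0 and the member median stayed above 0, so that fewer calls were not a turn of its direction. The 11 were PSMB10, PSMC1, PSMC4, PSMC6, PSMD5, PSMD6, PSMD12, PSMD14, PSME3, PSMG1 and PSMG2, and PSME4 fell. The 10 members not called were PSMA7, PSMB1, PSMB4, PSMB6, PSMC5, PSMD3, PSMD4, PSMD9, PSMD10 and PSME2.

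**Figure D2:**
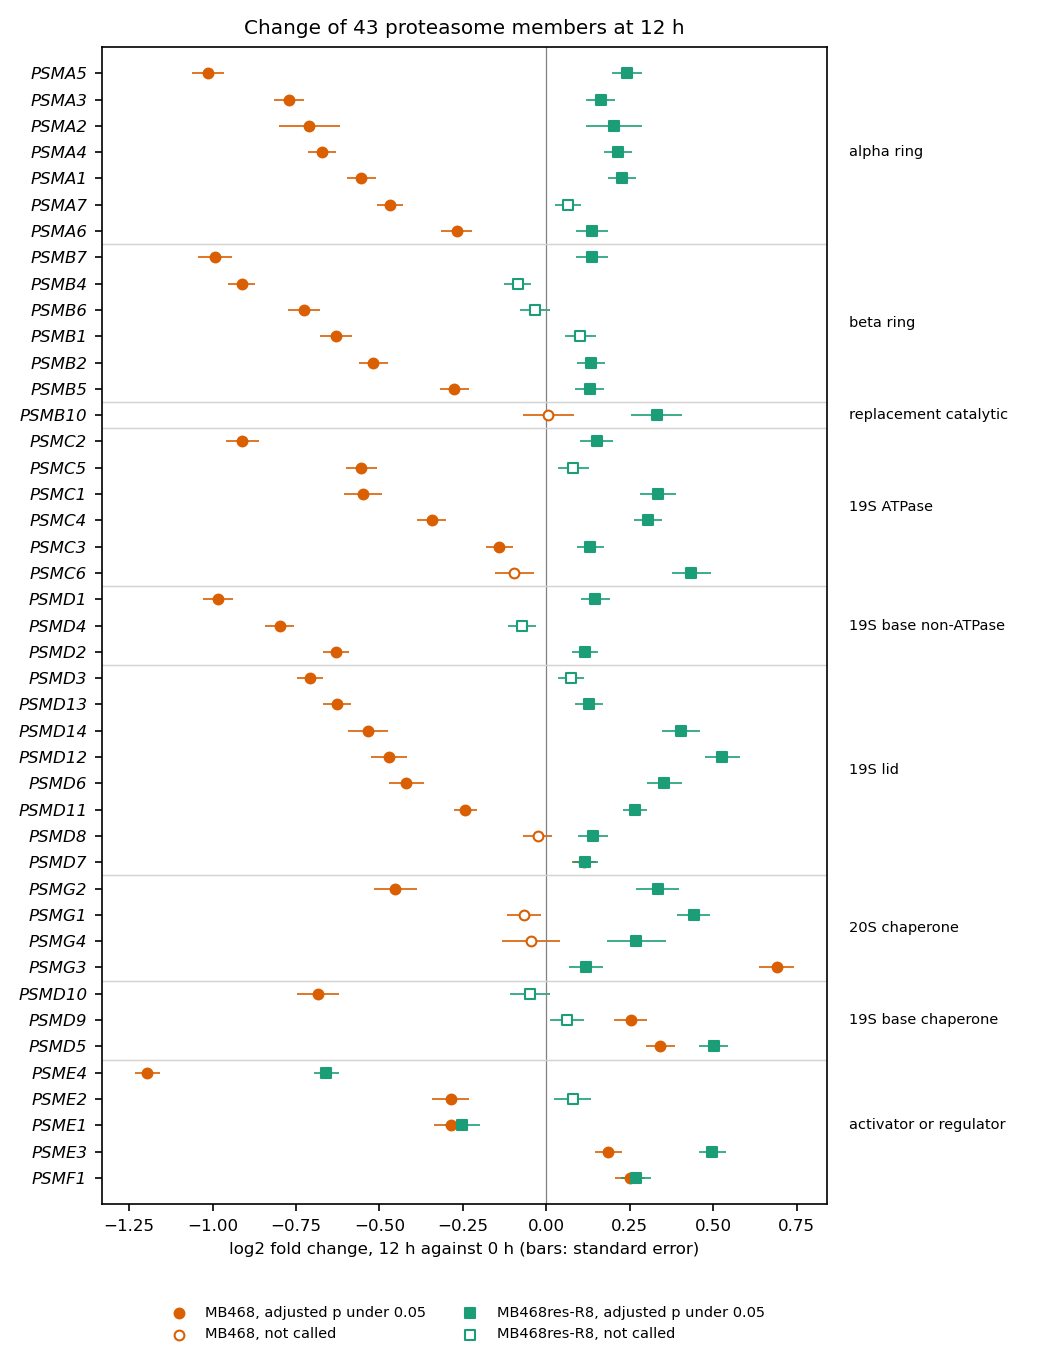
Log2 fold change at 12 h against 0 h (horizontal axis, bars are standard errors, 3 libraries per group) for 43 members (rows, grouped by role), with circles for MB468, squares for MB468res-R8 and filled symbols for adjusted p under 0.05. Ring and cap genes lie to the left of 0 in MB468 apart from PSMD7, and PSMD7 crosses to the left with spike-in scaling, while most lie to the right in MB468res-R8.

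Read gene by gene, 21 of 44 members fell in MB468 and rose in MB468res-R8, a pattern of 5.99% of all tested genes. With spike-in scaling the R8 rise stayed called only for PSMC1, PSMC4, PSMD6, PSMD12, PSMD14 and PSMG2 among these 21. The 5 members PSMD7, PSMG3, PSMD5, PSME3 and PSMF1 rose in both lines, as did 18% of all genes, and PSME4 and PSME1 fell in both, as did 18.1%. With spike-in scaling only PSMG3 of these 5 rose in MB468, and only PSMD5 and PSME3 of them rose in R8. PSME1 was then not called lower in R8. A further 9 fell in MB468 with no call in R8 (10.6% of all genes), and the 6 members not called in MB468 all rose in R8 (6.18%). PSMB3 is among these 6, and its rise came from a single library and was lost with the replicate block. PSMD9 rose in MB468 with no call in R8 (12.5%). The responses were compared directly as the R8 change minus the MB468 change. This difference was positive and called for 38 of 44 members and negative for 2, where 26.2% of all genes were called positive and 30.3% negative. Spike-in scaling gave 37 and 0, where 27.5% of all genes were positive and 11.8% negative. Its median was 0.65 over the members and -0.0545 over all genes. At 0.5 and 2 h the same difference was called for 0 members by edgeR and by DESeq2, with 4 and 0 members at an unadjusted p under 0.05. Of all genes, 1.2% were called positive and 1.7% negative at 0.5 h, and 2.19 and 2.88% at 2 h. The lines were also compared within the 12 h libraries, where 38 members were higher in R8 and 3 were lower, beside 33.9 and 39.2% of all genes, with a median of 0.75 against -0.0555 over all genes. No overlap was seen for 37 members above and 3 below, beside 34.8 and 40.5% of all genes. PSMD7, PSME1 and PSMD5 were the members not called there. PSMB3 is among the 38, a call that was also lost with the replicate block.

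The 7 tested genes of the alpha ring, which gates entry to the barrel, all fell in MB468 at 12 h, with log2 fold changes from -1.01 to -0.27. In MB468res-R8, 6 of them rose, by 0.14 to 0.24, and PSMA7 was not called. None of these rises in R8 was called with spike-in scaling. PSMA5 (chr1:109399042-109426448) changed most. Its counts in MB468 were 2706, 2703 and 2635 at 0 h and 1337, 1344 and 1307 at 12 h (log2 fold change -1.01 ± 0.047 (SE), adjusted p = 9.41e-22), which is 0.495 of the 0 h level. In R8 they were 3112, 2842 and 3073 at 0 h and 3486, 3673 and 3531 at 12 h (log2 fold change 0.24 ± 0.045 (SE), adjusted p = 1.24e-05). Neither line showed overlap between the times, and the lines moved in opposite directions (difference 1.26 ± 0.065, adjusted p = 1.82e-19). In the 0.5 and 2 h libraries PSMA5 ranged over 2482 to 2831 in MB468 and 2881 to 3229 in R8.

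PSMA2, already higher in R8 at 0 h, fell in MB468 to 1114, 1143 and 939 (log2 fold change -0.71 ± 0.091 (SE), adjusted p = 7.91e-07) and stood at 3168, 3773 and 3367 in R8 (log2 fold change 0.20 ± 0.084 (SE), adjusted p = 0.0432). At 12 h the lines differed by 1.69 ± 0.089 on the log2 scale (adjusted p = 5.46e-13), the widest gap among the members apart from PSMB3, followed by PSMA5 at 1.42. The R8 rise of PSMA2 was lost with the replicate block (adjusted p = 0.0606). PSMA8, the testis form that takes the place of PSMA7, had 0 counts in all 24 libraries, which allows, at 3 counts per library and for counting error only, up to 0.255 CPM in the smallest library and 0.0822 CPM in the largest.

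The beta ring carries the proteolytic sites, and its 3 catalytic subunits are encoded by PSMB6, PSMB7 and PSMB5, with caspase-like, trypsin-like and chymotrypsin-like activity. PSMB7 (chr9:124353465-124415444) fell by the most. Its counts in MB468 were 1563, 1588 and 1605 at 0 h, 1526, 1529 and 1443 at 0.5 h, 1580, 1663 and 1699 at 2 h and 789, 819.8 and 782 at 12 h (log2 fold change -0.99 ± 0.051 (SE), adjusted p = 1.71e-20). The R8 counts were 1793, 1659 and 1850 at 0 h, 1842, 1752 and 1631 at 0.5 h, 1715, 1727 and 1734 at 2 h and 1910, 2019 and 1899 at 12 h (log2 fold change 0.14 ± 0.048 (SE), adjusted p = 0.0138 at 12 h). The MB468 libraries of 12 h were at 0.502 of the 0 h level and far below every other library, and the 12 h libraries of R8 were above those of 0 h.

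PSMB6 counts in MB468 were 2608, 2631 and 2329 at 0 h, 2548, 2468 and 2345 at 0.5 h, 2569, 2392 and 2545 at 2 h and 1547, 1504 and 1536 at 12 h (log2 fold change -0.73 ± 0.048 (SE), adjusted p = 5.49e-17). R8 libraries held 3171, 3092 and 3075 at 0 h, 3097, 3196 and 2977 at 0.5 h, 3132, 3227 and 3341 at 2 h and 3137, 3126 and 2864 at 12 h (log2 fold change -0.034 ± 0.046 (SE), adjusted p = 0.541 at 12 h). The 12 h libraries of MB468 did not overlap with earlier ones, whereas those of R8 overlapped with 0 h. PSMB5 moved least of the 3, with 3713, 3751 and 3640 at 0 h, 3569, 3719 and 3663 at 0.5 h, 3586, 3507 and 3959 at 2 h and 3046, 3073 and 3060 at 12 h in MB468 (log2 fold change -0.28 ± 0.043 (SE), adjusted p = 4.67e-07). In R8 it went from 4035, 3803 and 4332 at 0 h through 4135, 4202 and 3988 at 0.5 h and 4102, 4146 and 4298 at 2 h to 4449, 4520 and 4340 at 12 h (log2 fold change 0.13 ± 0.043 (SE), adjusted p = 0.00889). The PSMB5 product is the main target of the drug bortezomib.

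**Figure D3:**
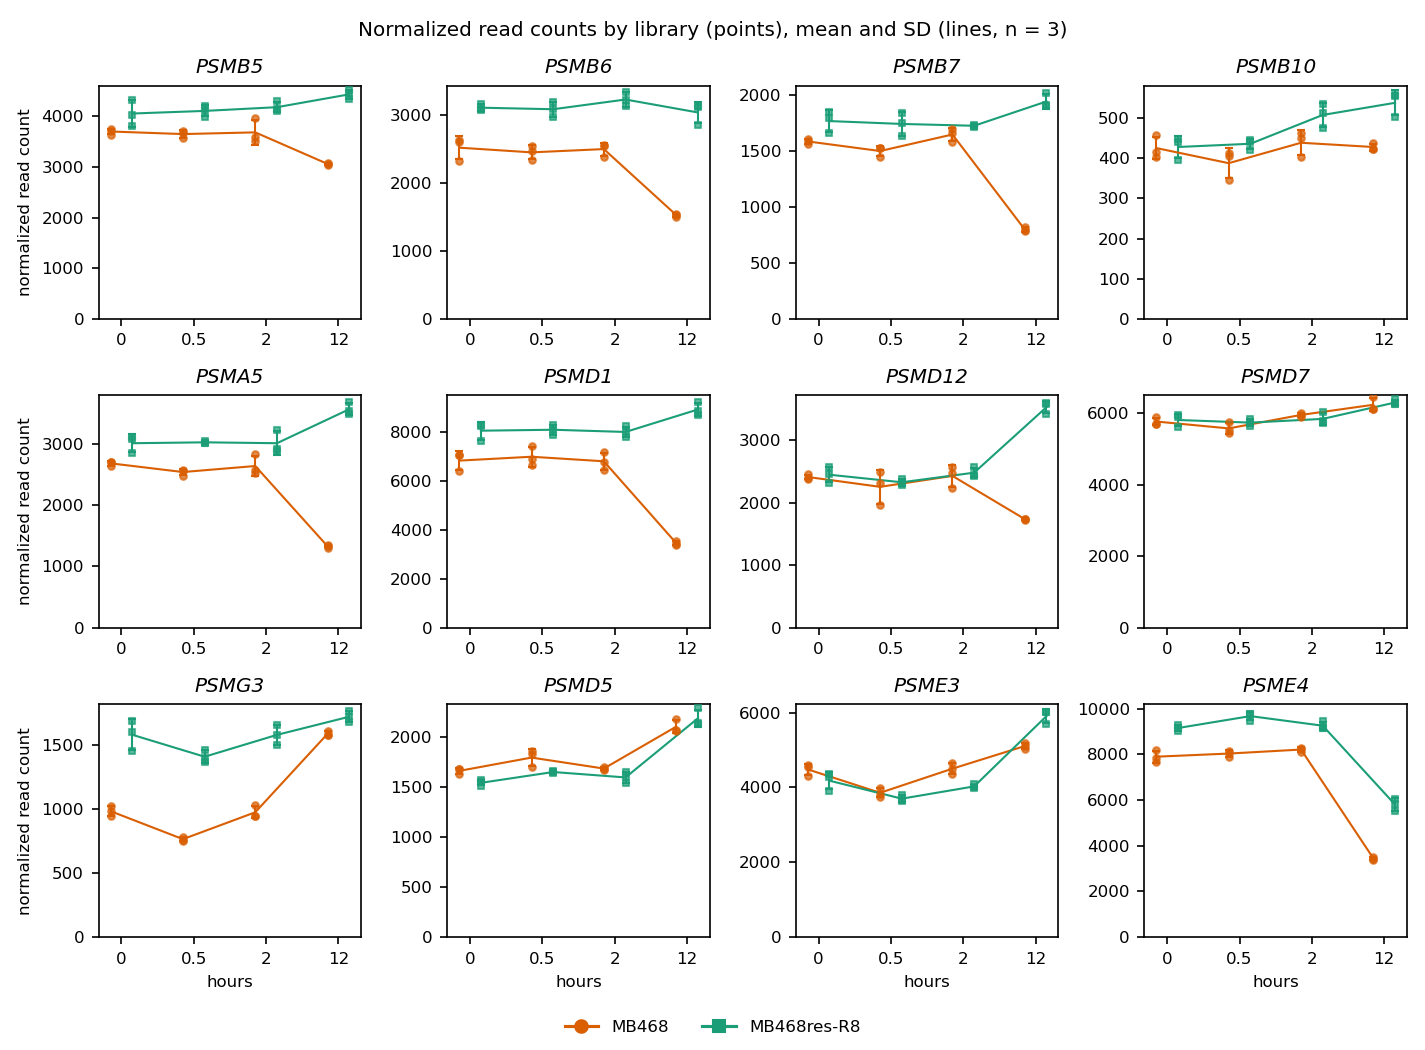
Normalized read counts (vertical axes, starting at 0) for 12 members by time (horizontal axes), with 1 point per library, circles for MB468, squares for MB468res-R8, and lines through the mean with SD (n = 3). PSMA5, PSMB7, PSMD1 and PSME4 drop at 12 h in MB468, PSMG3 and PSMD5 rise there, and PSME4 drops in both lines. The PSMD5 rise in MB468 was not called with spike-in scaling.

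The structural beta subunits PSMB1, PSMB2 and PSMB4 also fell in MB468, with log2 fold changes of -0.63, -0.52 and -0.91. In R8 only PSMB2 among them was called (0.13). PSMB3, the remaining structural subunit, could not be read in the same way. Its counts were 12, 37 and 5 in MB468 at 0 h, 10, 11 and 6 in R8 at 0 h, and 43, 3 and 638 in R8 at 12 h, so that 1 library carried the last group. Single libraries of MB468 at 2 h and R8 at 0.5 h also stood apart, with 245 and 263 counts against at most 20 in the other libraries of those groups. It was called higher in R8 at 12 h (log2 fold change 4.53 ± 1.80, adjusted p = 0.0385), but not with the replicate block, and without PSMB3 31 members rose in R8.

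The 20S core can exchange its catalytic subunits for interferon-inducible ones, PSMB9, PSMB10 and PSMB8, which form the immunoproteasome, or for the thymic PSMB11. PSMB10 was the single one of the 4 with enough reads. Its counts were 458, 415 and 405 at 0 h, 345, 406 and 414 at 0.5 h, 463, 451 and 403 at 2 h and 424, 423 and 438 at 12 h in MB468, with a 12 h log2 fold change of 0.0062 (95% interval -0.15 to 0.16). In R8 they were 449, 396 and 441 at 0 h, 422, 446 and 441 at 0.5 h, 513, 536 and 477 at 2 h and 558, 503 and 555 at 12 h (log2 fold change 0.33 ± 0.078 (SE), adjusted p = 0.000338 at 12 h). The times overlapped in MB468 and did not between 0 and 12 h in R8.

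The ratio of PSMB10 to PSMB7 counts, genes for alternative subunits of the same site, does not depend on library scaling. It was 0.269 ± 0.0213 (SD, n = 3) at 0 h and 0.538 ± 0.0223 at 12 h in MB468, and 0.242 ± 0.00685 and 0.278 ± 0.0247 in R8, with 0.295 ± 0.0181 at 2 h. The MB468 groups did not overlap, and the exact two-sided permutation test gave p = 0.1, the smallest that 3 against 3 libraries allow. In R8 the same exact test gave p = 0.2 at 12 h and p = 0.1 at 2 h. The change in MB468 came with the fall of PSMB7 and no called change of PSMB10.

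PSMB8, PSMB9 and PSMB11 stayed near 0. PSMB8 was above 0 in 10 libraries and did not exceed 2 counts, PSMB11 had 1 count in each of 2 libraries, and PSMB9 was above 0 in 6 libraries, with 19 counts in 1 R8 library of 0 h and at most 3 counts elsewhere. The levels of PSMB8 and PSMB9, and that of PSMB3, stand beside a property of the reference. In hg38 with its alternate contigs, 100.0% of the 100-base exon windows of PSMB3 (119 windows), PSMB8 (657) and PSMB9 (563) also occur exactly on an alternate contig. For all other members that share was 0.3% or less. The 14 coding genes within 250 kb of PSMB8 and PSMB9 had a median of 0 counts. In the wider MHC region, beyond that distance, DDX39B, a broadly used RNA helicase gene, had a median of 0 counts. Other broadly used genes of that region were above 0, with medians of 7 for CSNK2B, 27.5 for BAG6 and 878 for TUBB. Their highest counts in a library were 512, 830 and 1352, so that CSNK2B and BAG6 varied widely between libraries. The 11 coding genes around PSMB3 had a median of 4 counts. Low counts of these 3 members therefore do not show that the genes were silent, and the part of the duplicated sequence was not tested. PSMB11 and PSMA8 have no such windows. PSMC1 had 11.37% of its windows elsewhere on the primary chromosomes, and part of its reads may be uncertain.

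**Figure D4:**
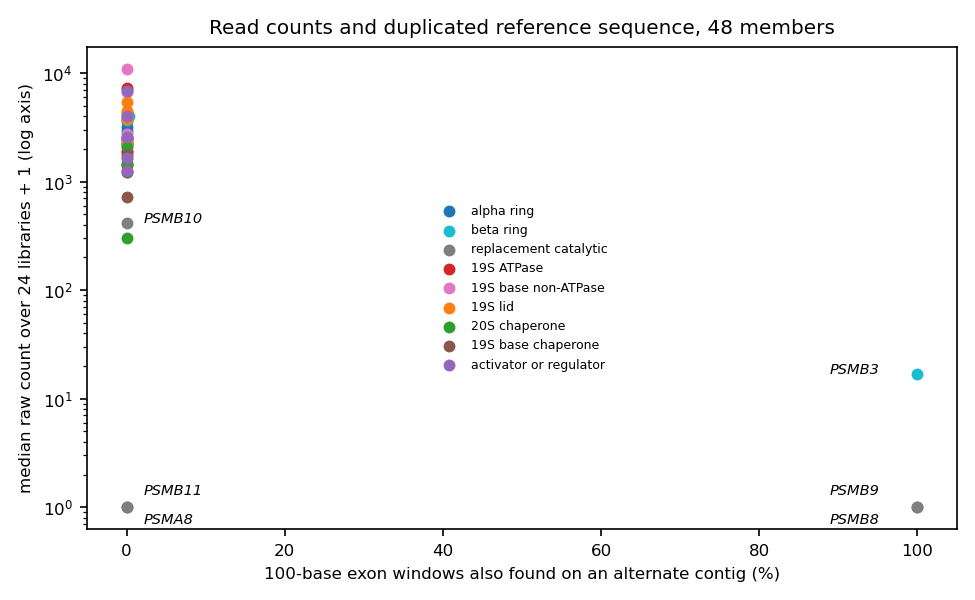
Median raw count over the 24 libraries plus 1 (vertical log axis) against the percent of 100-base exon windows also found on an alternate contig of hg38 (horizontal axis) for all 48 members, colored by role. PSMB3, PSMB8 and PSMB9 sit at 100% with medians of 16, 0 and 0 counts, while PSMA8 and PSMB11 are at 0 counts without duplicated windows.

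Of the 6 ATPases of the cap (PSMC1 to PSMC6), which unfold substrates, 5 fell in MB468 at 12 h, with PSMC2 falling most (log2 fold change -0.91 ± 0.050 (SE), adjusted p = 2.06e-19) and PSMC6 not called at -0.096. In MB468res-R8, 5 rose, led by PSMC6 (log2 fold change 0.44 ± 0.058 (SE), adjusted p = 2.15e-08), and PSMC5 was not called. PSMC2 overlaps PMPCB and PSMC5 overlaps FTSJ3 on the genome, and the library kit does not mark strand. The 3 non-ATPase genes of the base, PSMD1, PSMD2 and the ubiquitin receptor PSMD4, all fell in MB468, with log2 fold changes of -0.98, -0.63 and -0.80. In R8, PSMD1 and PSMD2 rose (0.15 and 0.12) and PSMD4 was not called (-0.073).

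PSMD1, a large scaffold of the base (chr2:231056845-231173116), had counts of 7051, 7050 and 6400 at 0 h and 3447, 3562 and 3381 at 12 h in MB468. In R8 the counts were 8278, 7640 and 8252 at 0 h and 8711, 9214 and 8845 at 12 h. Groups did not overlap in either line, in opposite directions, and the difference of the responses was 1.13 ± 0.063 (adjusted p = 1.94e-18). The R8 rise of PSMD1 was not called with spike-in scaling.

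Of the 8 lid genes, 6 fell in MB468. PSMD8 was not called (-0.026) and PSMD7 rose slightly, from 5883, 5701 and 5687 to 6116, 6119 and 6440 (log2 fold change 0.11 ± 0.036 (SE), adjusted p = 0.00597), a direction that turned to -0.13 with spike-in scaling. In R8, 7 lid genes rose and PSMD3 was not called (0.074). PSMD12, a lid scaffold subunit (chr17:67337916-67366605), led them, with 2458, 2323 and 2569 at 0 h and 3421, 3583 and 3590 at 12 h (log2 fold change 0.53 ± 0.053 (SE), adjusted p = 4.28e-11). In MB468 the same gene had 2397, 2457 and 2388 at 0 h and 1746, 1725 and 1749 at 12 h (log2 fold change -0.47 ± 0.054 (SE), adjusted p = 5.55e-10). PSMD14, the deubiquitinase of the lid, changed by -0.53 in MB468 and 0.40 in R8, both called. PSMD8 remained lower in R8 than in MB468 at 12 h (4648, 4188 and 4534 against 5274, 5076 and 5650, log2 fold change -0.26 ± 0.044 (SE), adjusted p = 1.59e-06).

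The assembly chaperones moved in both directions in MB468. Of 7, in MB468 at 12 h 3 rose, 2 fell and 2 were not called, with a median of -0.045, and in MB468res-R8 5 rose and 0 fell, with a median of 0.27. For the 0 falls, PSMD10 was the one with a negative estimate (-0.048, adjusted p = 0.51). With spike-in scaling PSMG3 was the only chaperone called higher in MB468, and PSMG1, PSMG2 and PSMD5 were those called higher in R8. PSMG3 (chr7:1567332-1571005) rose most in MB468, where counts were 949, 946 and 1032 at 2 h and 1579, 1578 and 1612 at 12 h (log2 fold change 0.69 ± 0.053 (SE), adjusted p = 5.7e-15). The corresponding R8 counts were 1505, 1578 and 1660 at 2 h and 1768, 1717 and 1684 at 12 h (log2 fold change 0.12 ± 0.051 (SE), adjusted p = 0.0425), and with the replicate block the R8 rise had an adjusted p of 0.0522. The 12 h libraries of MB468 thus came near the level R8 had at 0 h, and the response was smaller in R8 (difference -0.57 ± 0.074, adjusted p = 1.35e-08), although with spike-in scaling the difference was -0.31 (adjusted p = 0.181). PSMG3 overlaps its antisense gene PSMG3-AS1, whose log2 fold change at 12 h was -1.19 ± 0.18 in MB468 and -0.65 ± 0.16 in R8, opposite to PSMG3.

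PSMG1 and PSMG2 form the other pair that starts alpha ring assembly. PSMG1 counts were 2239, 2377 and 2237 at 0 h and 2137, 2253 and 2165 at 12 h in MB468, which was not called (-0.067, 95% interval -0.17 to 0.032). In R8 they were 2125, 2072 and 2227 at 0 h and 2789, 3088 and 2847 at 12 h (log2 fold change 0.44 ± 0.051 (SE), adjusted p = 7.8e-10), with no overlap. PSMG2 went from 1590, 1625 and 1554 to 1167, 1203 and 1124 in MB468 (log2 fold change -0.45 ± 0.065 (SE), adjusted p = 1.33e-07) and from 1540, 1272 and 1423 to 1727, 1864 and 1767 in R8 (log2 fold change 0.33 ± 0.065 (SE), adjusted p = 3.29e-05). In MB468 PSMG2 thus fell while PSMG1 was not called, a difference between genes that was not tested, and both rose in R8. PSMG4 was at 364, 328 and 305 in MB468 at 12 h (not called, -0.045) and 409.5, 374 and 407 in R8 (log2 fold change 0.27 ± 0.088 (SE), adjusted p = 0.00779). At 0.5 and 2 h PSMG1 and PSMG2 ranged over 1935 to 2514 and 1502 to 1878 in MB468, and over 2005 to 2179 and 1307 to 1623 in R8.

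The chaperones of the cap's base are encoded by PSMD5, PSMD9 and PSMD10. PSMD5 rose in both lines, from 1679, 1628 and 1675 to 2074, 2058 and 2176 in MB468 (log2 fold change 0.34 ± 0.043 (SE), adjusted p = 4.67e-09) and from 1565, 1545 and 1514 to 2129, 2286 and 2143 in R8 (log2 fold change 0.50 ± 0.044 (SE), adjusted p = 8.1e-13). Neither line showed overlap between the times. PSMD9 rose from 1348, 1310 and 1328 to 1561, 1561 and 1626 in MB468 (log2 fold change 0.25 ± 0.049 (SE), adjusted p = 1.9e-05) and was 1335, 1321 and 1259 at 0 h and 1414, 1343 and 1331 at 12 h in R8 (not called, 0.061). PSMD10, the gene for the oncoprotein gankyrin, fell in MB468 from 693, 683 and 680.2 to 441, 408 and 427 (log2 fold change -0.68 ± 0.064 (SE), adjusted p = 1.77e-12) and was 844, 786 and 902 at 0 h and 811, 852 and 785 at 12 h in R8, where the times overlapped. The MB468 rises of PSMD5 and PSMD9 at 12 h were not called with spike-in scaling. At 12 h PSMD9 was lower in R8 than in MB468 (log2 fold change -0.22 ± 0.049 (SE), adjusted p = 0.000156). At 0.5 and 2 h the counts of these 3 genes ranged in MB468 over 1668 to 1855, 1204 to 1455 and 675 to 777, and in R8 over 1541 to 1662, 1209 to 1350 and 811 to 980.2.

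Activators other than the 19S cap open the core without ATP or ubiquitin. PSME4, which encodes PA200, a nuclear activator, fell more than any other member in both lines. Its counts in MB468 were 7822, 7677 and 8193 at 0 h, 8076, 8142 and 7883 at 0.5 h, 8286, 8101 and 8242 at 2 h and 3507, 3440 and 3389 at 12 h (log2 fold change -1.20 ± 0.037 (SE), adjusted p = 2.63e-27). R8 libraries held 9276, 9027 and 9154 at 0 h, 9458, 9784 and 9779 at 0.5 h, 9442, 9170 and 9149 at 2 h and 5518, 6061 and 5816 at 12 h (log2 fold change -0.66 ± 0.037 (SE), adjusted p = 1.06e-18 at 12 h). The 12 h libraries were at 0.437 and 0.633 of the 0 h level, without overlap, and the fall was smaller in R8 (difference 0.54 ± 0.052, adjusted p = 1.48e-11).

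PSME3 encodes PA28 gamma, the nuclear activator of the PA28 family. Its counts in MB468 were 4540, 4592 and 4309 at 0 h, 3824, 3988 and 3753 at 0.5 h, 4479, 4364 and 4656 at 2 h and 5024, 5181 and 5107 at 12 h (log2 fold change -0.22 ± 0.041 (SE), adjusted p = 4.77e-05 at 0.5 h and log2 fold change 0.19 ± 0.040 (SE), adjusted p = 8.88e-05 at 12 h). The R8 counts were 4353, 3916 and 4266 at 0 h, 3795, 3630 and 3669 at 0.5 h, 3995, 4001 and 4081 at 2 h and 6009, 6016 and 5689 at 12 h (log2 fold change -0.18 ± 0.041 (SE), adjusted p = 0.000736 at 0.5 h and log2 fold change 0.50 ± 0.041 (SE), adjusted p = 9.94e-14 at 12 h). PSME3 thus fell at 0.5 h and rose at 12 h in both lines with the main scaling. With spike-in scaling the R8 fall at 0.5 h was not called, and the MB468 estimate at 12 h was -0.046. The ratio of PSME3 to PSME4 counts, free of library scaling, was 0.568 ± 0.0376 at 0 h and 1.48 ± 0.0424 at 12 h in MB468 (SD, n = 3), and 0.456 ± 0.0196 and 1.02 ± 0.0602 in R8. The groups did not overlap in either line (exact two-sided permutation test, p = 0.1 in each, the smallest possible).

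PSME1 and PSME2 encode the interferon-inducible PA28 alpha and beta, which join in 1 ring. PSME1 fell in both lines, from 1886, 1978 and 1769 to 1520, 1596 and 1521 in MB468 (log2 fold change -0.29 ± 0.051 (SE), adjusted p = 4.21e-06) and from 1900, 1926 and 1748 to 1554, 1560 and 1575 in R8 (log2 fold change -0.25 ± 0.052 (SE), adjusted p = 5.91e-05). PSME2 fell in MB468, from 1161, 1247 and 1189 to 961, 986 and 1004 (log2 fold change -0.29 ± 0.055 (SE), adjusted p = 1.66e-05), and was 1337, 1246 and 1374 at 0 h and 1347, 1443 and 1392 at 12 h in R8, which was not called (0.079, 95% interval -0.029 to 0.19). The ratio of PSME1 to PSME2 counts was 1.57 ± 0.0702 at 0 h and 1.57 ± 0.0533 at 12 h in MB468, against 1.41 ± 0.137 and 1.12 ± 0.0369 in R8 (SD, n = 3). In R8 the groups did not overlap (exact permutation p = 0.1). At 0.5 and 2 h PSME1 and PSME2 ranged over 1727 to 1999 and 1133 to 1306 in MB468 and over 1778 to 1971 and 1337 to 1510 in R8. PSME1 overlaps EMC9 and PSME2 overlaps RNF31. The R8 fall of PSME1 at 12 h was not called with spike-in scaling.

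PSMF1 encodes PI31, a regulator that inhibits the core in vitro. Its counts were 3040, 3088 and 3110 at 0 h, 2545, 2873 and 2755 at 0.5 h and 3572, 3640 and 3774 at 12 h in MB468 (log2 fold change 0.25 ± 0.044 (SE), adjusted p = 3.67e-06 at 12 h). In R8 they were 2580, 2574 and 2641 at 0 h, 2587, 2505 and 2460 at 0.5 h and 3251, 2903 and 3222 at 12 h (log2 fold change 0.27 ± 0.045 (SE), adjusted p = 2.53e-06 at 12 h). With spike-in scaling neither of these 12 h rises was called. PSMF1 was lower in R8 than in MB468 at 0 h (log2 fold change -0.25 ± 0.045 (SE), adjusted p = 1.53e-05) and at 12 h (log2 fold change -0.23 ± 0.044 (SE), adjusted p = 1.55e-05), and the 12 h responses differed by 0.018 (95% interval -0.11 to 0.14, not called).

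The same comparison was made for 29 further genes of the pathway, chosen with earlier results of these data known. In MB468 at 12 h, 7 rose and 18 fell, with a median of -0.22, where 36.1% of all genes rose and 34.7% fell. In R8 18 rose and 4 fell, with a median of 0.16, where 30.2% of all genes rose and 31.1% fell. With spike-in scaling 2 rose and 19 fell in MB468 (median -0.45), beside 17.2 and 40.2% of all genes, and 7 rose and 2 fell in R8 (median 0.19), beside 18.8 and 21.2%. At 0 h 11 of the 29 were higher in R8 and 1 was lower, with a median of 0.033, beside 26.4 and 27.1% of all genes. With spike-in scaling 2 were higher and 13 lower, beside 7.76 and 44.1%. At 0.5 h 3 rose and 8 fell in MB468, beside 17.6 and 16.4% of all genes, and 5 rose and 5 fell in R8, beside 17.4 and 16.3%. At 2 h 3 rose and 3 fell in MB468, beside 8.88 and 7.47%, and 1 rose and 1 fell in R8, beside 2.52 and 1.85%. With spike-in scaling 0 rose and 25 fell in MB468 at 2 h, beside 1.63 and 62.9%.

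Among proteins that join the particle, ADRM1, a ubiquitin receptor of the cap, changed by -0.36 in MB468 and -0.027 in R8 (called in MB468 alone), and POMP, which matures the core, by -0.49 and 0.27 (both called). SEM1, the smallest cap subunit, changed by -0.27 in MB468 and 0.035 in R8, the latter not called. AKIRIN2, which helps bring proteasomes into the nucleus, rose in both lines (0.24 and 0.25), with -0.0043 in MB468 under spike-in scaling, and PAAF1 was called in neither (0.17 and -0.034). Of 5 enzymes or factors bound to the cap, 4 fell in MB468 and all 5 rose in R8. They include the deubiquitinases USP14 (-0.37 and 0.16) and UCHL5 (-0.22 and 0.61). VCP, the segregase that extracts substrates, changed by -0.68 and 0.22, both called.

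NFE2L1, the activator of proteasome genes named above, rose in MB468 at 12 h (log2 fold change 0.44 ± 0.050 (SE), adjusted p = 1.23e-09), a rise that spike-in scaling left at 0.20 and not called (adjusted p = 0.174), and it fell in R8 (log2 fold change -0.48 ± 0.051 (SE), adjusted p = 2.89e-10), and the responses differed by -0.92 ± 0.071 (adjusted p = 2.11e-13). NGLY1, the deglycosylase that edits the NFE2L1 protein, rose in both lines (0.51 and 0.52), with 0.28 in MB468 and not called under spike-in scaling. DDI2, the protease that cleaves NFE2L1 into its active form, was higher in R8 at 0 h (log2 fold change 1.33 ± 0.083 (SE), adjusted p = 2.81e-17). At 12 h it fell in MB468 (-0.31) and rose in R8 (0.21). The stress-induced ubiquitin-binding factor ZFAND2A rose by 1.08 in MB468 and 0.23 in R8, whereas ZFAND5 fell, with -0.65 and -0.78. UBB, which encodes polyubiquitin, fell in MB468 at 12 h (-0.55) and was not called in R8 (-0.0071).

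The interferon and antigen genes that often accompany PSMB8, PSMB9, PSMB10, PSME1 and PSME2 were compared as well, 9 in all, of which 8 were tested and TAP1 was not. In MB468 at 12 h 1 rose and 1 fell, where 36.1% of all genes rose and 34.7% fell. In R8 3 rose and 1 fell, where 30.2% of all genes rose and 31.1% fell. With spike-in scaling 0 rose and 4 fell in MB468 at 12 h (median -0.31), beside 17.2 and 40.2% of all genes. On that scale 1 rose and 1 fell in R8 (median 0.215), beside 18.8 and 21.2%. IRF1, an interferon-induced transcription factor, fell in R8 (log2 fold change -1.12 ± 0.080 (SE), adjusted p = 2.41e-14) and was not called in MB468 (-0.10). B2M, the light chain of MHC class I, fell in MB468 (-0.33) and was not called in R8 (0.014). TAP1 and TAP2, neighbors of PSMB8 and PSMB9, had medians of 1 and 4 counts, and since genes near them had a median of 0 these levels are read no further.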

How the data were processed

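RNA-seq was compared in 24 libraries of 2 cell lines at 4 times. Per the submitters' processing notes, reads of 100 bases were aligned with HISAT2 2.1.0 to hg38 with ERCC spike-ins. They were assigned to genes with featureCounts (Subread 1.5.3), and both DESeq 1.22.2 and DESeq2 are listed. The paper names DESeq2 for normalization and testing, and RUVSeq for unwanted variation between samples. The deposited raw counts per gene were analyzed as the authors made them. The deposited normalized values and the authors' comparison columns were not used, and 0 columns belonged to other series. The poly(A) kit does not mark strand, so antisense overlaps cannot be told apart.

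The rule that picks members uses gene names and no measured value, but the choice of this gene family and of the other lists was made with earlier results of these data known. Genes were kept by filterByExpr (minimum count 10, minimum total 15), scaled by TMM and fitted with edgeR 4.0.16 (robust quasi-likelihood, 1 mean per group, all 24 libraries, 16 residual degrees of freedom, two-sided). Spike-ins were left out. The threshold was 0.05 after Benjamini-Hochberg adjustment over all 14741 tested genes, and the fit was tested on simulated data. Normalized counts are counts per effective library size, brought to the mean of these sizes, 22748285. Totals of 11745553 to 36496655 counts per library set the precision, and floors cover counting error only. Ratios were tested by exact permutation. Alternatives included DESeq2 1.42.0, its size factors, spike-in totals, filters, a stricter threshold, only the groups compared, a replicate block, each library left out and, added after seeing the data, members without PSMB3.

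Values in every library were given for catalytic and replacement subunits, activators, chaperones and the 3 called members per direction with the largest change in each comparison, and other members by counts and ranges. Same-numbered libraries deviated together in all 3 pairs for MB468 at 2 h against 0 h (correlations of 0.101 to 0.572 over 6520 genes) and not in the other comparisons. No 2 replicates agreed within sampling noise (lowest chi-square per degree of freedom 2.26). Gene positions and lengths are from GENCODE on hg38, and promoters from RefSeq, GRCh38.p14. Exon windows of 100 bases, every 5 bases, were mapped with minimap2 2.31. R 4.3.3 and Python 3.11.15 were used. Values of some listed genes are not reported here.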

Additional observations from a re-analysis of the deposited data

Results flagged for a closer look

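The 12 h response differed between MB468 and MB468res-R8 by the interaction test in edgeR for 40 of the 44 tested members. Values are the log2 change in R8 minus that in MB468, and a positive value means that the gene stood higher in R8 relative to its own 0 h level.
In the alpha ring the difference was 1.26 for PSMA5, 0.93 for PSMA3, 0.91 for PSMA2, 0.89 for PSMA4, 0.78 for PSMA1, 0.53 for PSMA7 and 0.41 for PSMA6. In the beta ring the difference was 1.13 for PSMB7, 0.83 for PSMB4, 0.73 for PSMB1, 0.69 for PSMB6, 0.65 for PSMB2 and 0.41 for PSMB5. Of the replacement catalytic subunits the difference was 0.32 for PSMB10. Among the ATPases of the cap the difference was 1.06 for PSMC2, 0.88 for PSMC1, 0.65 for PSMC4, 0.64 for PSMC5, 0.53 for PSMC6 and 0.27 for PSMC3. In the rest of the base the difference was 1.13 for PSMD1, 0.75 for PSMD2 and 0.73 for PSMD4. In the lid the difference was 1.0 for PSMD12, 0.94 for PSMD14, 0.78 for PSMD3, 0.77 for PSMD6, 0.76 for PSMD13, 0.51 for PSMD11 and 0.17 for PSMD8. Of the core chaperones the difference was 0.79 for PSMG2, 0.51 for PSMG1, 0.31 for PSMG4 and -0.57 for PSMG3. Of the cap chaperones the difference was 0.64 for PSMD10, 0.16 for PSMD5 and -0.19 for PSMD9. Among the activators the difference was 0.54 for PSME4, 0.37 for PSME2 and 0.31 for PSME3.

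The negative values belong to PSMG3 and PSMD9, and with spike-in scaling that of PSMD9 was positive (0.066). The remaining 4 tested members, PSMB3, PSMD7, PSME1 and PSMF1, were not called. Groups of 3 libraries are too small for a test of single outlying libraries.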

How the results depend on the processing

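The member median stayed below 0 in MB468 at 12 h, above 0 in R8 at 12 h and above 0 for the 12 h line difference under every alternative run, spike-in scaling included. Scaling mattered most. With spike-in totals the median of all genes moved to -0.31 at 0 h between lines, to -0.20, -0.42 and -0.23 in MB468 at 0.5, 2 and 12 h, to -0.11 between lines at 12 h and to 0.26, 0.38 and 0.20 for the line difference at 0.5, 2 and 12 h. The cause of each change listed here was not tested.

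With spike-in totals 2 members were higher and 15 lower between lines at 0 h (median -0.20). In MB468, 0 were higher at 0.5 h (median -0.26), 43 lower at 2 h (median -0.40), and 1 higher at 12 h (median -0.71). In R8, 0 were lower at 0.5 h (median 0.052), the 2 h median was -0.031, and 11 were higher and 1 lower at 12 h. The median was 0.71 between lines at 12 h and 0.32, 0.35 and 0.90 for the line difference at 0.5, 2 and 12 h, with 0 lower at 12 h. Estimates that changed sign between lines at 0 h were PSMA4 -0.17, PSMA5 -0.14, PSMA6 -0.15, PSMB2 -0.19, PSMB4 -0.18, PSMB5 -0.17, PSMB6 -0.0072, PSMB7 -0.15, PSMC3 -0.053, PSMC5 -0.020, PSMC6 -0.17, PSMD1 -0.071, PSMD10 -0.0074, PSMD11 -0.21, PSMD13 -0.14, PSMD14 -0.021, PSMD2 -0.20, PSMD3 -0.050, PSMD4 -0.17, PSMD6 -0.15, PSMD7 -0.30, PSME2 -0.17 and PSME4 -0.096. Others were PSMD5 in MB468 at 0.5 h (-0.10), PSMD7 (-0.13) and PSME3 (-0.046) in MB468 at 12 h, and PSMD9 in the 12 h line difference (0.066).

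The single rise in MB468 at 0.5 h became 0 with DESeq2, DESeq2 size factors, no filter, at least 10 counts in every library, only the groups compared, and an adjusted p under 0.01. At that stricter threshold 5 fell in MB468 and 1 in R8 at 0.5 h, and 1 line difference was negative at 12 h. DESeq2 gave 1 rise in R8 at 0.5 h. Without the filter 1 was higher in MB468 at 2 h, in R8 at 0.5 and 2 h and in the 0.5 h line difference, and 1 was lower in the line difference at 2 h and at 12 h. With only the groups compared 1 rose in R8 at 2 h and the median between lines at 12 h was 0.79.

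Leaving out 1 library gave 16 to 24 members higher and 6 to 9 lower between lines at 0 h (median 0.078 to 0.14), and 36 to 39 higher and 3 lower at 12 h (median 0.73 to 0.80). In MB468 it gave 0 to 1 higher and 6 to 10 lower at 0.5 h (median -0.093 to -0.036), 0 to 2 and 0 at 2 h (median 0.0021 to 0.041), and 5 to 6 and 32 at 12 h (median -0.55 to -0.47). In R8 it gave 0 to 1 and 1 to 4 at 0.5 h (median -0.029 to 0.023), 0 to 1 and 0 at 2 h (median -0.0033 to 0.038), and 21 to 35 and 2 to 3 at 12 h (median 0.12 to 0.19). The line difference gave 0 at 0.5 h (median 0.036 to 0.085) and 2 h (median -0.041 to 0.015), and 34 to 38 positive and 1 to 2 negative at 12 h (median 0.63 to 0.73). The 21 came without R8 0 h replicate 2. The rise in MB468 at 0.5 h was kept only without R8 0 h replicate 3, MB468 0.5 h replicate 3, MB468 2 h replicate 3, R8 2 h replicate 2 or R8 12 h replicate 2. The 3 falls in R8 at 0.5 h became 1 without R8 0 h replicate 1 or R8 0.5 h replicate 2, and 1 rose without R8 0 h replicate 3. In MB468 at 2 h, 2 rose without MB468 2 h replicate 1, and in R8 at 2 h 1 rose without MB468 0.5 h replicate 1 or R8 2 h replicate 3. The MB468 median at 0.5 h was -0.083 without MB468 0 h replicate 3 and -0.093 without MB468 0.5 h replicate 2. The negative line difference at 12 h was 1 instead of 2 without any 1 of MB468 0 h replicate 3, R8 0 h replicate 1, MB468 0.5 h replicates 1 and 2, R8 0.5 h replicate 3, R8 2 h replicate 3, MB468 12 h replicate 3, or R8 12 h replicates 1 and 3.

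With the replicate block, which the pairing check met for MB468 at 2 h alone, 0 members were called there as without it (1267 genes rose and 1078 fell, against 1309 and 1101). In R8 at 12 h 29 members rose with the block. It ended 5 calls, PSMD5 at 0 h (adjusted p = 0.0556), PSMA2 (0.0606), PSMB3 (0.0875) and PSMG3 (0.0522) in R8 at 12 h, and PSMB3 between lines at 12 h (0.0892).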
